A study of Mus musculus with 6 samples.

Results

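The 9 pro-B and mast cell identity genes examined here are Cd79a, Cd79b, Igll1 and Vpreb1 of the B lineage and Kit, Fcer1a, Fcer1g, Ms4a2 and Cpa3 of the mast cell lineage. They were taken as every probe set, a group of array oligonucleotides read as 1 value, that the platform annotation pairs with exactly 1 gene among these 9. That gave 12 probe sets for 9 genes, out of 45037 non-control probe sets, of which 34945 are paired with 1 gene. RNA came from Ba/F3-N, a mouse cell line of bone marrow origin that carries NRAS-G12D, an oncogenic form of the small GTPase NRAS. Both groups carry this form. In 3 samples the cells had received 1 µM N-arachidonoyl dopamine (NADA), a conjugate of arachidonic acid and dopamine, and in 3 samples an equal volume of vehicle, and all were collected at 12 hours. Cells grew in RPMI medium with fetal bovine serum. The comparison asks which transcripts differ after NADA in these cells. The labels do not say whether the 3 samples of a group were separate cultures, so each p-value reflects only array-to-array spread, possibly technical.

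Ba/F3 is commonly described as an interleukin-3 dependent pro-B cell line. Pro-B and pre-B cells build a receptor in which the CD79A and CD79B chains carry the signalling motifs, and in which the products of Igll1 and Vpreb1 form a surrogate light chain until a real light chain is made. Mast cells carry the stem cell factor receptor KIT and the high-affinity IgE receptor, made of an alpha chain (Fcer1a) that binds IgE, a beta chain (Ms4a2) that amplifies the signal and the gamma chain (Fcer1g) that carries it. The gamma chain also serves other Fc receptors and is found in many myeloid cells. Cpa3 encodes carboxypeptidase A3, a protease of mast cell granules that is also made by basophils and early progenitors.

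Upstream sequences of the genes of the IgE receptor and of Cpa3 are shown because their transcript levels divided these genes: Fcer1g and Cpa3 were measured well above background, and Fcer1a and Ms4a2 were not. Gata2, which encodes a transcription factor that binds GATA motifs and is active in mast cells, was also above background. Sequences are from RefSeq on GRCm38.p6, all on the minus strand, written 5′ to 3′ and ending just before the outermost annotated start of the gene. The stretches are chr1:171234350-171234599 for Fcer1g, chr3:20242210-20242431 for Cpa3, chr1:173227233-173227479 for Fcer1a and chr19:11623791-11623969 for Ms4a2. Capitals mark GATAA or its reverse complement TTATC.
Fcer1g: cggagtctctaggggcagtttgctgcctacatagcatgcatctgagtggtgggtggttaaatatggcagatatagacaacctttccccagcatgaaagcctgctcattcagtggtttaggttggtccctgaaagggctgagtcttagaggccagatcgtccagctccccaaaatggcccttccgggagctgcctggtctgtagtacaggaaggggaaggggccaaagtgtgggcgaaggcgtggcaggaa
Cpa3: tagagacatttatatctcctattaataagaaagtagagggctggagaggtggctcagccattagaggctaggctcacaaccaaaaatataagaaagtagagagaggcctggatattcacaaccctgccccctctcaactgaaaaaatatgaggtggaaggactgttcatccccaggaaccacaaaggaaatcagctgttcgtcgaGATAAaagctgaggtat
Fcer1a: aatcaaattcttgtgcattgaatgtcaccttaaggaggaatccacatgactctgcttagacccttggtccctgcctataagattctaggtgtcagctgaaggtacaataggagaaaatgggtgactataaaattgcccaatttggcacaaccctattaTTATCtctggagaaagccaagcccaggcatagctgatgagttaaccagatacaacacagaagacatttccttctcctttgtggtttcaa
Ms4a2: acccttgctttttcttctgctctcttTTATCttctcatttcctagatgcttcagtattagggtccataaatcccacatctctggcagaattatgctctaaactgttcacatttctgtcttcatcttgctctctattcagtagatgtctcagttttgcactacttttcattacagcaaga
The promoter table held 8 of the 9 genes. Within 250 bases upstream of the start each gene has in that table, GATAA on either strand occurred 0 times in Fcer1g, 1 time in Cpa3, 1 time in Fcer1a and 3 times in Ms4a2, and 1 of these 3 lies in the stretch printed. The motif was found in such a window in 23.0% of all 27025 promoters listed. The promoters of Cd79a, Igll1, Vpreb1 and Kit held it 0 times. The E-box CANNTG is the motif bound by E proteins such as the product of Tcf3. It occurred 2 times in Cd79a, 3 times in Igll1, 1 time in Vpreb1 and 0 times in Kit. In Fcer1g it occurred 1 time, in Cpa3 2 times, in Fcer1a 2 times and in Ms4a2 0 times. Of all promoters 66.0% had at least 1. A match to CANNTG and a match to GATAA can share at most 1 base. These motifs were chosen after expression values were seen, and matches of these letters are a description of the sequence only.

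No detection calls came with the linear intensities, so background was judged against 2 references. The first, called the dim limit here, was the median of all non-control probe sets on each array, which ran from 37.9 to 39.1. Of all probe sets 46.5% were above it on all 6 arrays. The second was the 95th percentile of 50 probe sets of genes that belong to other tissues, such as liver, pancreas, skin and testis, which ran from 61.3 to 73.3 over the arrays. Of those 50 probe sets 12% were above the dim limit on all arrays, so a probe set just above the dim limit is not clearly apart from genes that blood cells are not known for. Levels of different probe sets cannot be set against each other, since probes differ in how strongly they bind, and each is compared only with these references and between groups.

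By the dim limit, 4 of the 9 genes were above background on every array: Fcer1g, Cpa3, Cd79b and Igll1. By the second reference 3 were, with Igll1 below it on all 6 arrays, and at the 70th percentile of each array only Fcer1g and Cpa3 remained. The transcripts of Cd79a, Vpreb1, Kit, Fcer1a and Ms4a2 had every probe set below the dim limit on all 6 arrays. The line thus measured above both references for transcripts of the IgE receptor gamma chain, of carboxypeptidase A3 and of the CD79B chain. Those of the other IgE receptor chains, of KIT, of CD79A and of Vpreb1 were not above background. Igll1 was above the dim limit only. In neither lineage were all of these 9 genes measured above background. Low signal at these probe sets does not test the identity of the line.

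**Figure D1:**
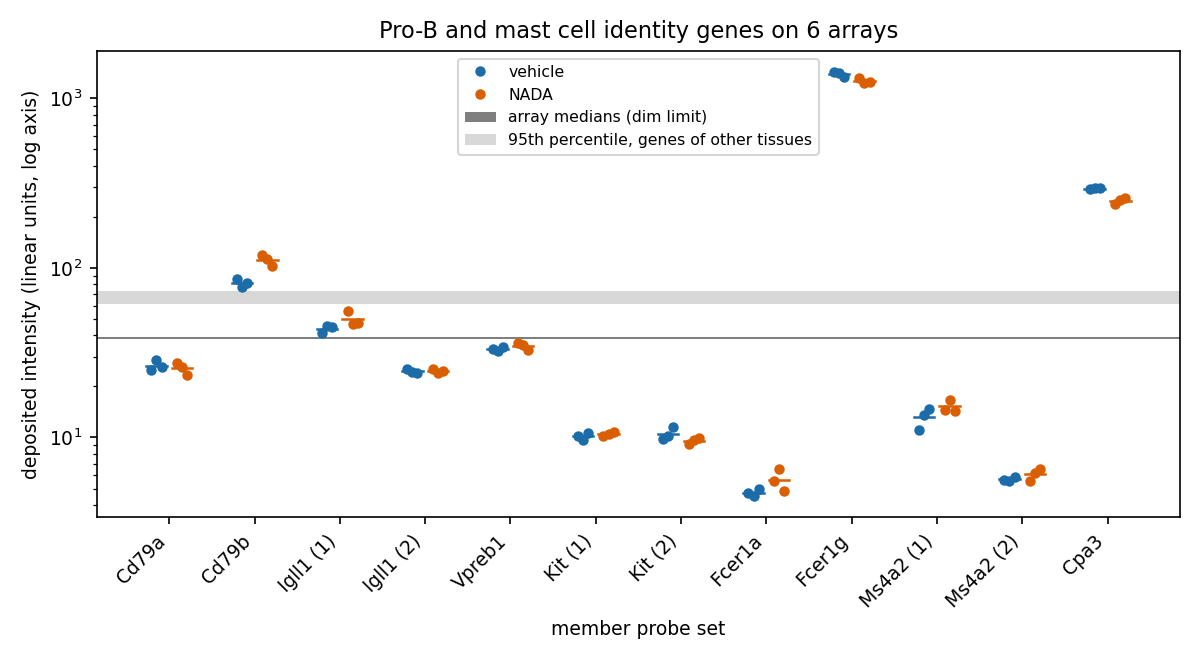
Deposited intensity (linear units on a log axis) of the 12 probe sets on the 3 vehicle and 3 NADA arrays, each point an array and each short line a group mean. The dark band spans the array medians used as dim limit and the grey band the 95th percentile of genes of other tissues. Fcer1g, Cpa3 and Cd79b lie above both bands on all arrays, and the first probe set of Igll1 lies between them.

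NADA changed 3 of the 12 probe sets by limma at an adjusted p under 0.05. Cd79b was higher, and Cpa3 and Fcer1g were lower. Over all probe sets 39.9% were called, 20.0% higher and 19.8% lower, and among probe sets above the dim limit on all arrays 68.8% were, so 3 of 12 is not more than the array as a whole gave. None of the 3 changes reached 1.5-fold. In 4 of the 12 the groups did not overlap, against 47.8% of all probe sets.

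Of the B lineage genes, Cd79b encodes the beta signalling chain of the B cell receptor. Its intensities were 119, 113 and 103 in NADA and 85.4, 76.8 and 80.9 in vehicle. Every NADA array was above every vehicle array. The means were 112 ± 7.87 and 81.0 ± 4.34 (SD, n = 3), and the log2 fold change was 0.46 ± 0.07 (SE, 95% interval 0.30 to 0.62, limma adjusted p = 8.79e-05), a ratio of 1.38. Scaled to the bacterial control RNAs described below, the estimate turned to -0.12 (adjusted p = 0.407), so the direction of Cd79b depends on the scaling.

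Cd79a, the partner chain of Cd79b, stood at 27.5, 26.2 and 23.4 in NADA and 24.9, 28.5 and 25.9 in vehicle. The groups overlapped, and the log2 fold change was -0.04 (95% interval -0.25 to 0.17, adjusted p = 0.803). Since every value was under the dim limit, that interval describes a background signal.

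Igll1, which encodes the lambda5 protein of the surrogate light chain, had 2 probe sets that disagreed in level. The first, of the x type that can bind several transcripts, measured 55.9, 46.7 and 47.6 in NADA and 41.1, 45.6 and 44.8 in vehicle. The NADA arrays were all higher, by a log2 fold change of 0.19 ± 0.09 (95% interval -0.0083 to 0.38), but the probe set did not pass (adjusted p = 0.128). The second lay between 23.9 and 25.4 on all 6 arrays, under the dim limit, with a log2 fold change of 0.0047 (95% interval -0.19 to 0.20). That the gene is above the dim limit rests on the less specific of its probe sets.

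Vpreb1, the partner of Igll1 in the surrogate light chain, measured 35.9, 35.0 and 32.9 in NADA and 33.2, 32.4 and 34.0 in vehicle. Its values came close to the dim limit without passing it on any array, and the groups overlapped (log2 fold change 0.06, 95% interval -0.13 to 0.24, adjusted p = 0.659). A further probe set is shared by Vpreb1 and its close copy Vpreb2, was left out by the rule, and lay between 13.1 and 16.2.

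Of the mast cell genes, Fcer1g gave intensities of 1317, 1229 and 1246 in NADA and 1430, 1413 and 1336 in vehicle. The highest NADA array was just below the lowest vehicle array. The group means were 1264 ± 47.0 and 1393 ± 50.3 (SD, n = 3), and the log2 fold change was -0.14 ± 0.04 (95% interval -0.22 to -0.06, adjusted p = 0.00929), a ratio of 0.907. This call was lost with quantile normalization (-0.05, adjusted p = 0.290), and without NADA replicate 2 (-0.12, adjusted p = 0.0579) or vehicle replicate 1 (-0.12, adjusted p = 0.0523).

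Cpa3 gave 238, 252 and 259 in NADA and 290, 294 and 297 in vehicle, with no overlap. Its means were 249 ± 10.7 and 294 ± 3.10 (SD, n = 3) and its log2 fold change -0.24 ± 0.05 (95% interval -0.35 to -0.13, adjusted p = 0.00137), a ratio of 0.849. Under each scaling tried Cpa3 was lower in NADA, with -0.20 after quantile normalization and -0.81 after scaling to the control RNAs. The latter lowers every log2 fold change by the same 0.58, so a gene already lower had to stay lower.

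The alpha chain gene Fcer1a measured 5.54, 6.49 and 4.86 in NADA and 4.69, 4.53 and 4.99 in vehicle. Its groups overlapped and the log2 fold change of 0.24 (95% interval 0.0025 to 0.48) did not pass after adjustment (adjusted p = 0.107). Ms4a2, the beta chain, had 2 probe sets, between 11.1 and 16.7 and between 5.54 and 6.53, both with overlapping groups (log2 fold changes 0.22 and 0.10, adjusted p = 0.184 and 0.510). Both probe sets of Kit lay between 9.15 and 11.6 with overlapping groups (log2 fold changes 0.04 and -0.13, adjusted p = 0.806 and 0.365). At such levels a change in a transcript that is barely present would not be measurable, and no statement on its absence follows.

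**Figure D2:**
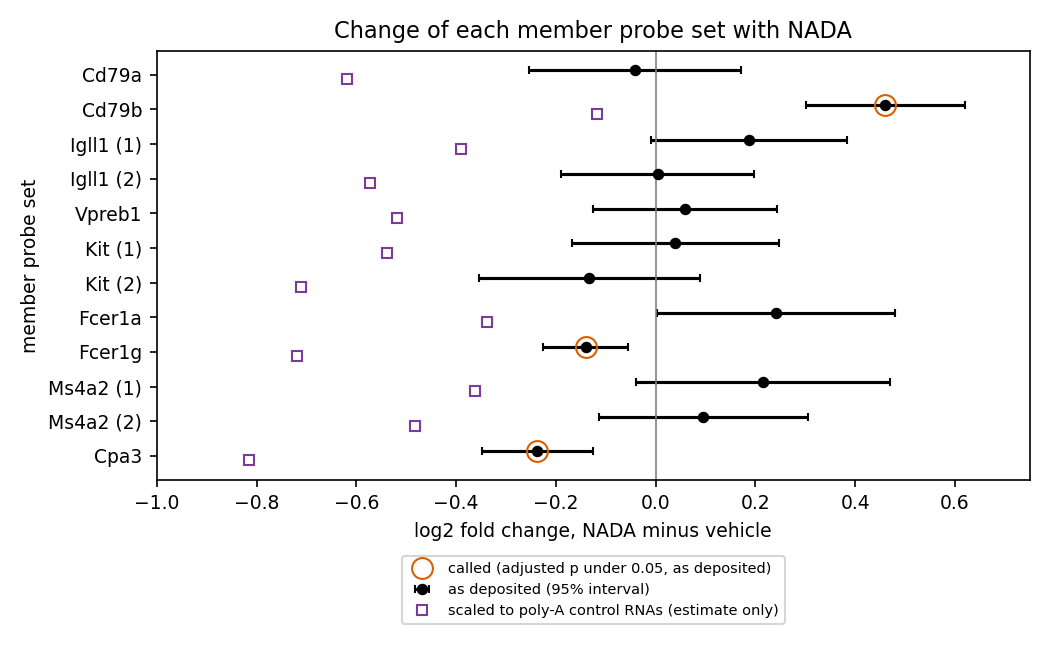
Log2 fold change of NADA over vehicle for the 12 probe sets, from 3 arrays per group. Black points with bars are the values as deposited with 95% intervals, orange rings mark the 3 called, and open squares are estimates after scaling each array to its poly-A control RNAs, all of which are below 0.

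Differences between the arrays run along with the treatment. Across probe sets of at least median mean intensity, Pearson r was 0.996 to 0.998 within a group and 0.939 to 0.942 across groups. The bacterial poly-A control RNAs, which are added to the RNA before labelling, averaged 8.72 ± 0.21 (SD, n = 3, log2 scale) with NADA and 8.14 ± 0.01 with vehicle, and the log2 ratio of the 3′ to the 5′ probe set of Actb was 1.06 ± 0.05 and 0.67 ± 0.04. Neither measure overlapped between groups (exact permutation p = 0.1, two-sided, which is the minimum for 3 against 3). Scaling to the control RNAs lowers each log2 fold change by 0.58 and moves the median of all probe sets from 0.02 to -0.56. On that scale 0 of the 12 probe sets were called higher and 9 lower, against 1578 and 37097 of all 45037. The factor of each array is shared by all its probe sets, and it varied among the NADA arrays (SD 0.21). The fit pools spread over probe sets as if their errors were separate. Adjusted p-values and calls on that scale therefore do not measure the uncertainty of the scaling, here and in the lists below. The part of these array differences in the changes of Cd79b, Cpa3 and Fcer1g was not tested. In such bulk RNA, fewer cells of a type and less RNA per cell cannot be told apart. Nras, the introduced gene, was above the dim limit with all 3 of its probe sets and called lower in NADA with each, without overlap (log2 fold changes -0.38, -0.25 and -0.39, adjusted p = 5.91e-06, 0.00397 and 1.72e-06). The sources used here do not say whether they detect the introduced form.

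Other B lineage genes were mostly dim. Of 47 probe sets for 21 measured genes 10 were above the dim limit on all arrays (21.3%), which came from Btk, Cd22, Cd37, Cd72, Cd74, Ighm and Tcf3. Btk, Cd37 with both probe sets, Cd72 (mean 138 in NADA and 141 in vehicle) and the brightest probe set of Tcf3 passed both references on all 6 arrays. These were also above the 70th percentile of each array. Cd22 and Cd74 were not above the 95th percentile of genes of other tissues on any array. Probe sets of Pax5 and Ebf1, the transcription factor genes that commit cells to the B lineage, averaged at most 33.7 and 12.8 in either group. Those of Rag1 and Rag2, the recombinase genes that join antibody gene segments, averaged at most 3.98 and 10.2, and those of Dntt, which adds bases at the joints, at most 24.3. The heavy chain gene Ighm had 11 probe sets, and 2 of them, of the x and s types that can bind several transcripts, were above both references, at 98.8 ± 2.94 and 78.4 ± 2.94 in NADA and 102 ± 10.7 and 86.4 ± 1.45 in vehicle. None of the 11 was called.

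With NADA 7 of these 47 probe sets were called by limma, 4 higher and 3 lower, a share of 14.9% beside 39.9% of all probe sets. The median log2 fold change was 0.03 (0.02 over all probe sets). After scaling to the control RNAs 1 was called higher and 44 lower. The tetraspanin gene Cd37 was higher with both probe sets (592 ± 32.2 in NADA and 329 ± 4.34 in vehicle for the brighter, log2 fold change 0.85 ± 0.05, adjusted p = 6.85e-10). Btk, a kinase downstream of the B cell receptor, was higher by 0.13 (adjusted p = 0.0468). Tcf3, which encodes the E proteins of early B cells and other cells, was lower with all 3 probe sets (210 ± 9.83 and 364 ± 17.0 for the brightest, -0.80 ± 0.06, adjusted p = 6.74e-09). Cd37, Btk and Tcf3 were named after their values were seen. The remaining probe set called higher was of Cd24a, at 3.10 in NADA and 2.58 in vehicle, far under the dim limit. After scaling to the control RNAs the brighter Cd37 probe set was still higher (0.27, adjusted p = 0.0312) and Btk turned to -0.45.

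Among other mast cell and basophil genes, the granule and mediator genes divided. The granule protease genes Cma1, Mcpt1, Mcpt2, Mcpt4, Mcpt8 and Tpsb2 were under the dim limit on every array, with group means of at most 28.9. Hdc, the histamine-forming enzyme, had 1 of 2 probe sets above the limit, at 51.5 ± 1.11 in NADA and 48.4 ± 1.77 in vehicle, which is under the 95th percentile of genes of other tissues. In contrast Srgn, the granule proteoglycan serglycin, Gzmb, the protease granzyme B, Alox5ap, needed for leukotriene synthesis, Slc18a2, the vesicular monoamine transporter, and Gata2 were above both references. Other mediator genes of this list were mixed. Hpgds (90.9 in NADA and 110 in vehicle) was above both references, and Alox5 (44.8 and 43.2) was above the dim limit only. Ltc4s (30.0 and 29.6) and Tph1 (10.8 and 10.7) were under the dim limit on every array. In all, 11 of 26 probe sets for 21 genes were above the dim limit (42.3%).

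With NADA 14 of these 26 probe sets were called (53.8%, beside 39.9% of all), 10 higher and 4 lower, with a median log2 fold change of 0.07. Of the 10, 5 were under the dim limit. After scaling to the control RNAs 2 of the 26 were called higher and 16 lower. The gene with the largest change was Slc18a2, with 3534, 3574 and 3678 in NADA and 1163, 1106 and 1153 in vehicle. All NADA arrays lay far above all vehicle arrays (log2 fold change 1.66 ± 0.03, adjusted p = 8.05e-15, and 1.08 after scaling to the control RNAs). Srgn rose by 0.95 ± 0.02 on the log2 scale and Mitf, which encodes a transcription factor needed by mast cells, by 0.76 ± 0.07 with the brighter of its probe sets. After that scaling Srgn still stood at 0.37 (adjusted p = 0.0178) and Mitf at 0.18 (adjusted p = 0.164). Gata2 was lower with both probe sets (1763 ± 18.8 in NADA and 2041 ± 31.9 in vehicle for the brighter, -0.21 ± 0.03, adjusted p = 3.36e-05). Gzmb was at 6628 ± 66.1 and 6901 ± 15.1 and did not pass (adjusted p = 0.0575). Counted on the brightest probe set of each gene, 6 genes rose and 3 fell, and 2 of these 9, Cd200r3 and Tpsg1, were under the dim limit on all arrays.

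**Figure D3:**
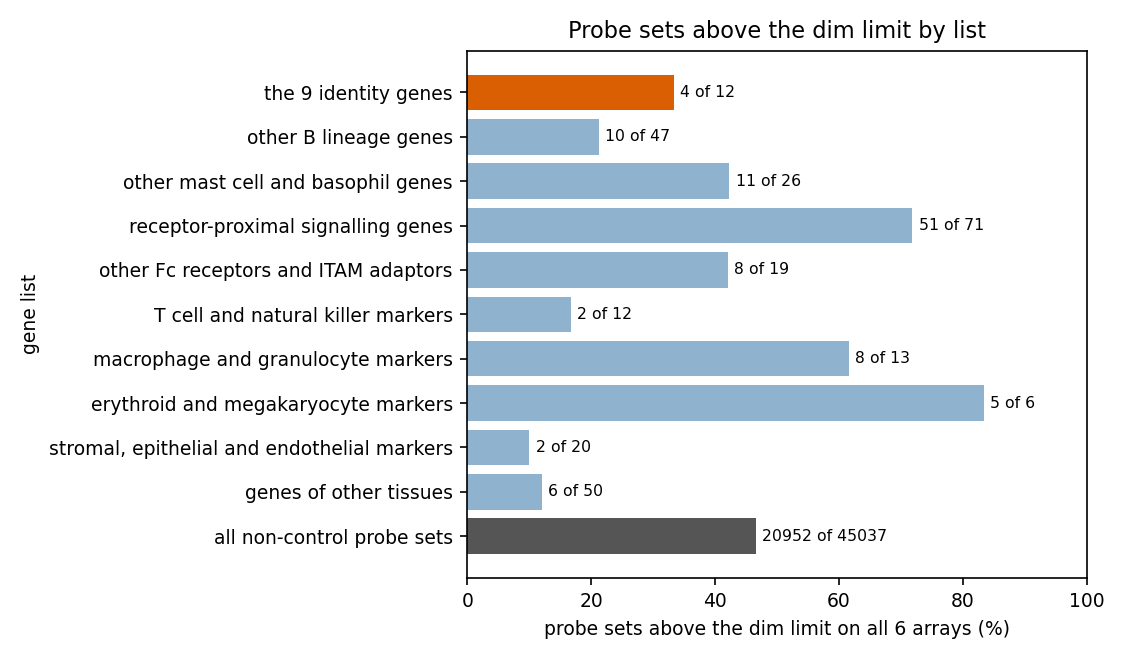
Share of probe sets above the dim limit on all 6 arrays (percent) for the 9 identity genes, the other lists and all non-control probe sets, with counts beside the bars. The 9 identity genes reach 4 of 12, other B lineage genes 10 of 47, and genes of other tissues 6 of 50.

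Of the activating IgG receptors that pair with the gamma chain, Fcgr3 was above both references on all arrays. Fcgr4 was under the dim limit on every array (34.9 in NADA and 35.3 in vehicle), and the brighter probe set of Fcgr1, at 57.4 and 52.6, was above the dim limit but not above the 95th percentile of genes of other tissues. Fcgr3, an activating IgG receptor that needs the gamma chain, stood at 468, 493 and 422 in NADA and 174, 169 and 168 in vehicle. Its log2 fold change was 1.43 ± 0.06 (adjusted p = 1.33e-11) and 0.86 after scaling to the control RNAs, so it was higher on both scales. Fcer1g was lower as deposited, and that scaling could only lower it further. The log2 ratio of Fcgr3 to Fcer1g within an array shifted by 1.57 between groups without overlap (exact permutation p = 0.1, again the minimum). Tyrobp, a signalling adaptor related to the gamma chain, was at 2911 ± 122 and 2135 ± 34.3 (0.45 ± 0.03, adjusted p = 2.11e-08), but at -0.13 (adjusted p = 0.338) after that scaling. Its log2 ratio to Fcer1g shifted by 0.59 (exact permutation p = 0.1). These 2 pairs were chosen after the values were seen, and adjustment over them leaves the exact permutation p at 0.1. Fcgr2b, the inhibitory IgG receptor, also named after its values were seen, was called higher with 4 of its 5 probe sets, by 0.77 to 1.78. Fcgr2b and Fcgr3 are similar in sequence, so their probe sets may share signal. Of the whole list of 19 probe sets 6 were called, all higher (31.6%, beside 39.9% of all probe sets), and after scaling to the control RNAs 4 were called higher and 13 lower.

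Genes that act just below the receptors were expressed more broadly. Of 71 probe sets for 26 genes 51 were above the dim limit (71.8%), and 24 genes had at least 1. By limma 43 probe sets were called (60.6%), 28 higher and 15 lower, with a median log2 fold change of 0.09, beside 39.9% of all probe sets and 68.8% of those above the dim limit. After scaling to the control RNAs 2 were called higher and 50 lower. On the brightest probe set of each gene 14 genes rose and 8 fell. Gab2, a docking protein that joins the IgE receptor to PI3K, rose with all 3 of its probe sets, most in the brightest (571 ± 26.4 and 171 ± 10.4, log2 fold change 1.74 ± 0.06, adjusted p = 1.04e-12), though only that one stayed called higher after scaling to the control RNAs (1.16). Syk, the kinase that binds the phosphorylated receptor chains, rose with all 4 probe sets (0.47 ± 0.06 in the brightest, adjusted p = 7.87e-06), but stood at -0.11 after that scaling.

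The genes of this list that were at least 2-fold lower were Lat, Lat2, Sla2 and Sh2b3, while other adaptors such as Dok1 (0.55), Shc1 (0.48) and Lcp2 (0.24) were called higher on their brightest probe sets. Lat, a scaffold that SYK phosphorylates in mast cells, measured 92.6, 96.6 and 120 in NADA and 295, 287 and 271 in vehicle. Every NADA array was under every vehicle array (log2 fold change -1.48 ± 0.08, adjusted p = 4.75e-10). Its relative Lat2, used in B cells and mast cells, changed by -1.25 ± 0.07 in the brightest of 3 probe sets, and the other 2 were dim and not called. The adaptor Sla2, which dampens antigen receptor signals, changed by -1.37 ± 0.06, and Sh2b3, an inhibitor of KIT and cytokine receptor signalling, by -1.16 ± 0.05. Both probe sets of Sla2 and of Sh2b3 were lower. Scaling to the control RNAs lowers every log2 fold change by the same amount, so it could not reverse any of these falls.

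**Figure D4:**
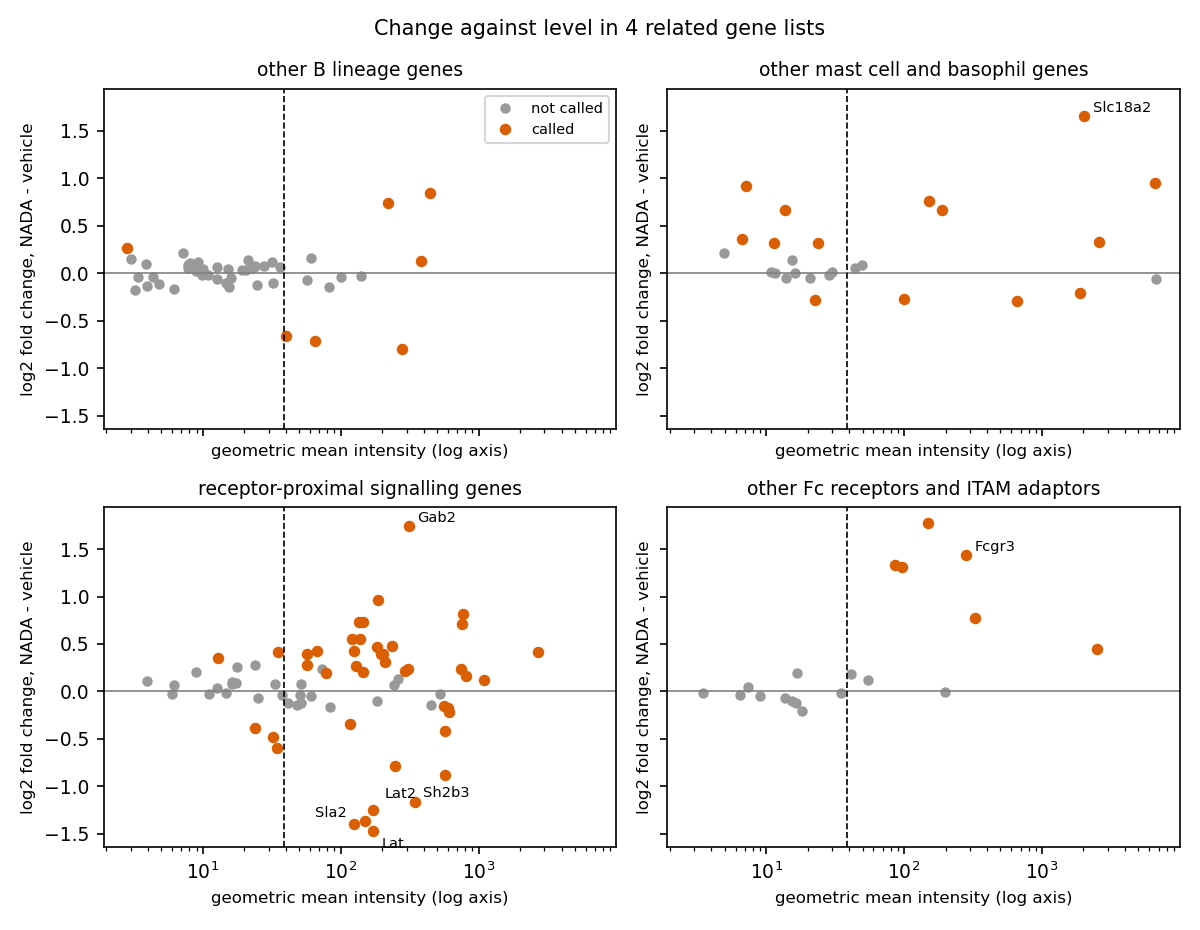
Log2 fold change of NADA over vehicle against geometric mean intensity (log axis) for each probe set of the other B lineage, other mast cell, receptor-proximal and Fc receptor lists, with the dim limit as a dashed line and called probe sets in orange. Labelled genes changed at least 2-fold on their brightest probe set: Slc18a2, Gab2 and Fcgr3 upward and Lat, Lat2, Sla2 and Sh2b3 downward.

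Some markers of other blood lineages were also above the dim limit. Macrophage and granulocyte markers had 8 of 13 probe sets above it, from 6 of 11 measured genes, among them S100a8, S100a9, Prtn3 and Adgre1. Erythroid and megakaryocyte markers had 5 of 6, among them Itga2b and Klf1. Of all probe sets 46.5% were above it. Of 12 probe sets for T and natural killer cells 2 were above the dim limit, of Cd3e and Cd4. The Cd3e probe set was above the 95th percentile of genes of other tissues on 0 arrays, and that of Cd4 on 1. Of 20 probe sets for stromal, epithelial and endothelial cells 2 were above the dim limit, of Epcam and Pecam1. With NADA 39.9% of all probe sets were called, and 68.8% of those above the dim limit on all arrays. Beside that, 7 of the 13 macrophage and granulocyte probe sets were called (53.8%), 6 higher and 1 lower. Of the 6 erythroid and megakaryocyte ones 4 were called (66.7%), 3 higher and 1 lower. Among those chosen after their values were seen, the macrophage surface receptor gene Adgre1 was at 280 ± 8.90 in NADA and 109 ± 9.63 in vehicle (SD, n = 3, log2 fold change 1.36 ± 0.07, limma adjusted p = 1.11e-10). The lysozyme gene Lyz2 was higher by 0.74, Klf1, an erythroid transcription factor gene, by 1.05 and the erythropoietin receptor gene Epor by 0.60, while Prtn3 (-0.41) and Itga2b (-0.25) were lower. After scaling to the control RNAs Adgre1 (0.79) and Klf1 (0.47) were still called higher, and Lyz2 and Epor were not called. Summed intensity, which the brightest probe sets carry, of the macrophage and granulocyte list ran from 2559 to 2663 in NADA and from 2389 to 2458 in vehicle, and that of the erythroid and megakaryocyte list from 936 to 1028 and from 926 to 934. The stromal, epithelial and endothelial sum was slightly lower with NADA, at 402 to 434 against 434 to 446, and the sums for T and natural killer cells overlapped. Their part in the changes of Cd79b, Cpa3 and Fcer1g was not tested.

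The genes whose pattern was most like each of the 4 genes above the dim limit were sought by Pearson r over the 6 arrays among 10040 other genes above that limit. For Cd79b they were Srp54b (r = 1.000), Coq9 (0.999) and Cyba (0.999), and 1795 genes exceeded an r of 0.95. For Cpa3 they were Ercc1 (0.999), Heatr3 (0.999) and Vti1b (0.998), with 1022 genes over 0.95. For Fcer1g they were Casc3 (0.991), Eps15l1 (0.981) and B430306N03Rik (0.980), with 44, and for Igll1 Kdr (0.986), Zfp212 (0.983) and Sox21 (0.981), with 11. All 6 genes named for Cd79b and Cpa3 were themselves called between the groups, and none of the 6 named for Fcer1g and Igll1 was. The 6 arrays include the treatment contrast, so r is a description only.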

How the data were processed

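In all, 6 arrays (Affymetrix 3′ expression arrays for mouse) were used, 3 per group, grouped by sample title. The deposited intensity values, 1 per probe set and array on a linear scale from 2.19 to 20113, were made by the authors; the submitters' processing notes list MAS5 and RMA, without version or role. Log2 was taken with no further normalization. The 64 control probe sets were left out of tests; 34945 of 45037 others had 1 gene in the platform annotation, 932 several and 9160 none.

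All 45037 probe sets were fitted in limma 3.58.1 (R 4.3.3; lmFit, eBayes with intensity trend; group as the only term; two-sided; Benjamini-Hochberg), called at adjusted p under 0.05. Errors of log2 fold changes are the fit's SE. Array number limits precision. The fit was tested on simulated arrays with 50 changed probe sets at each of 1.2-, 1.3-, 1.5- and 2-fold. It recovered 6%, 22%, 54% and 90% of them, and 2.27% of its 88 calls were false. Far fewer probe sets were changed there than were called here, so recovery in these data may differ. Alternatives changed the scaling, filters, probe set choice, fit, thresholds and arrays left out. Members and lists were chosen with earlier results of these data known. Beyond the 9 genes, the naming rule took called genes of at least 2-fold above the dim limit (up to 6 per list), a fixed set of lineage genes and Nras. Figures used matplotlib 3.10.9. The sample titles do not say whether same-numbered arrays belong together, and the main fit did not pair them. Correlations of deviations between same-numbered arrays were 0.19, -0.10 and 0.02, which cannot settle this with 3 arrays per group.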

Additional observations from a re-analysis of the deposited data

How the results depend on the processing

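The 20 other settings of the fold changes gave 208 values for the 12 probe sets, of which 179 kept direction and call. These include dim probe sets that were not called in the main fit and stayed so. Of the 3 called, Fcer1g lost its call in 6 settings, Cpa3 in 1, and Cd79b lost it in 1 and turned in 1. Filters and settings with 1 value per gene left out some probe sets. A further 8 lay at a floor of 50 on every array and gave no value there. Scaling to the control RNAs turned Cd79b to -0.12, Igll1 to -0.39 and -0.57, Vpreb1 to -0.52, Kit to -0.54, Fcer1a to -0.34 and Ms4a2 to -0.36 and -0.48. The second Igll1 probe set, near 0 throughout, turned with array weights (-0.0010), median centring (-0.031) and quantile normalization (-0.030), and Kit with its probe sets averaged (-0.047). Without 1 array at a time Cd79a ran from -0.093 to 0.026, that Igll1 probe set from -0.017 to 0.029, Fcer1g from -0.17 to -0.12, Cpa3 from -0.26 to -0.20 and Cd79b from 0.42 to 0.52. Fcer1g also lost its call with no intensity trend (adjusted p = 0.107) and a floor of 50 (adjusted p = 0.0902).

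Calls among the 12 were 9 after control RNA scaling, 0 at 1.5-fold and 2 to 4 without 1 array; Fcer1a was called without NADA replicate 3 (0.34, adjusted p = 0.0267) and with array weights (0.30, adjusted p = 0.0371). With the replicate number as a replicate block the calls were the same 3 (Fcer1g -0.14, adjusted p = 0.00478). Genes above the limit were 2 at the 70th percentile and 4 without any 1 array. Over all probe sets calls numbered 38675 after control RNA scaling, 6842 at 1.5-fold, 11210 with a filter at the 70th percentile, 8233 with the brightest probe set per gene, 7924 with probe sets averaged and 16446 to 17544 without 1 array. For other B lineage genes they were 45, for Fc receptors 17 after that scaling. The brightest probe set per gene gave 3 B lineage, 9 mast cell, 23 signalling and 3 Fc receptor calls, and averaging 3 B lineage, 20 signalling and 3 Fc receptor calls. The 70th percentile filter left 4 B lineage and 8 mast cell calls, the median filter 9 mast cell, the floor of 50 4 B lineage and 9 mast cell, and the 1.5-fold minimum 6 mast cell and 14 signalling calls. The smaller counts come with fewer probe sets tested or a stricter rule; for the floor and the scaling the cause was not tested. Signal near background limits Cd79a, Vpreb1, Kit, Fcer1a and Ms4a2.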
